A study of Mus musculus with 5 samples.

Results

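The interferon-inducible GTPases are proteins that bind GTP and defend a cell from within, and 10 of their genes were followed here across 5 injections of the mouse peritoneal cavity: Gbp2, Gbp3, Gbp5, Iigp1, Igtp, Irgm1, Tgtp1, Tgtp2, Mx1 and Mx2. The genes were taken by name, with every probe that carried the gene's symbol or a RefSeq transcript of it. Of the 10 genes, 8 had a matched probe, 11 probes in all, among 20121 genes with a value on every array. Mx1 and Mx2 had no matched probe and were not analysed here.

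Female BALB/c mice, an inbred strain, were injected intraperitoneally and RNA of the cells in the peritoneal lavage was measured 2 h later on 1-colour Agilent expression arrays. The control group received PBS, a buffered saline. The other injections were AEPS (50 µg), a polysaccharide from roots of the kiwifruit relative Actinidia eriantha, OVA (25 µg), the antigen ovalbumin, OVA (25 µg) with AEPS (50 µg), and OVA (25 µg) with Alum (200 µg), an aluminium adjuvant. Each of the 5 groups had 1 array, and the labels do not say how many mice gave the RNA of an array, so no difference between groups has a replicate check and no test was run.

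Interferons signal through receptor-bound Janus kinases to STAT proteins. Type I interferons act mainly at a DNA element called ISRE, and interferon gamma acts mainly at a DNA element called GAS. Genes of the GTPase families are known targets of both. Guanylate-binding proteins (GBPs) coat the vacuoles and surfaces of intracellular microbes and help caspases sense them. Among the immunity-related GTPases (IRGs), the effectors Iigp1 and the Tgtp proteins load onto vacuoles of parasites such as Toxoplasma and break them, while the regulators Irgm1 and Igtp keep the effectors inactive on the cell's own membranes. The Mx proteins are antiviral relatives of dynamin, and most inbred mouse strains carry a defective Mx1 allele.

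The promoters are shown first, because the measured genes had similar profiles over the arrays and the letters of both elements can be read in them. Windows from 250 bases before to 50 bases after the transcription start came from RefSeq on GRCm38.p6. Windows of 7 of the 10 genes were searched, 8 windows in all, with 2 for Gbp3. Iigp1, Mx1 and Mx2 were left out of the search, so its counts say nothing about the measured gene Iigp1. The ISRE core was searched as GAAANNGAAA and the GAS core as TTCNNNGAA, each on both strands, and they do not overlap each other in the stretches below. Stretches read 5′ to 3′ on the gene's strand with the cores in capitals.
Gbp2: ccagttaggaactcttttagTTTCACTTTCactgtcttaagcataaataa
Gbp3: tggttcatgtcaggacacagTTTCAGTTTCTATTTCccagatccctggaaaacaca
Gbp5: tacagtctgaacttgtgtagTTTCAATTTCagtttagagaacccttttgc
Irgm1: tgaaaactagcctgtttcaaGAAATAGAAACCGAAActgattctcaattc
Igtp: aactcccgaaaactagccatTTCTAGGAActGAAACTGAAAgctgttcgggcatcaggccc
Tgtp1: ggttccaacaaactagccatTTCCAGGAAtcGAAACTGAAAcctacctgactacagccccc
Tgtp2: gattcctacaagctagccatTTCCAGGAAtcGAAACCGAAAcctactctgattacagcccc
The GBP stretches lie on the plus strand, at chr3:142620584-142620633 for Gbp2, chr3:142559979-142560034 for Gbp3 and chr3:142496749-142496798 for Gbp5. On chromosome 11, Igtp is at chr11:58199491-58199551 on the plus strand. Irgm1 at chr11:48871421-48871470, Tgtp1 at chr11:48992294-48992354 and Tgtp2 at chr11:49064253-49064313 are on the minus strand. All lie upstream of the annotated start.

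The ISRE core stood in a window of 7 of the 7 genes searched and in 3.44% of 32851 windows of the same length. The GAS core stood in 4 of these 7 genes, Gbp5, Igtp, Tgtp1 and Tgtp2, and in 8.30% of all windows. In Igtp, Tgtp1 and Tgtp2 the GAS core came first and 2 bases separated it from the ISRE core. The capitals of Gbp3 and of Irgm1 hold 2 overlapping ISRE cores, and in the 3 GBP promoters the core is read on the opposite strand. The second Gbp3 window held neither core. Gbp5 also held 2 GAS cores apart from its ISRE core, one of them 52 to 44 bases before the start within chr3:142496862-142496910: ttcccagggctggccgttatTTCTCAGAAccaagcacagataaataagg. A match of letters describes the sequence, and binding of any factor was not measured.

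**Figure D1:**
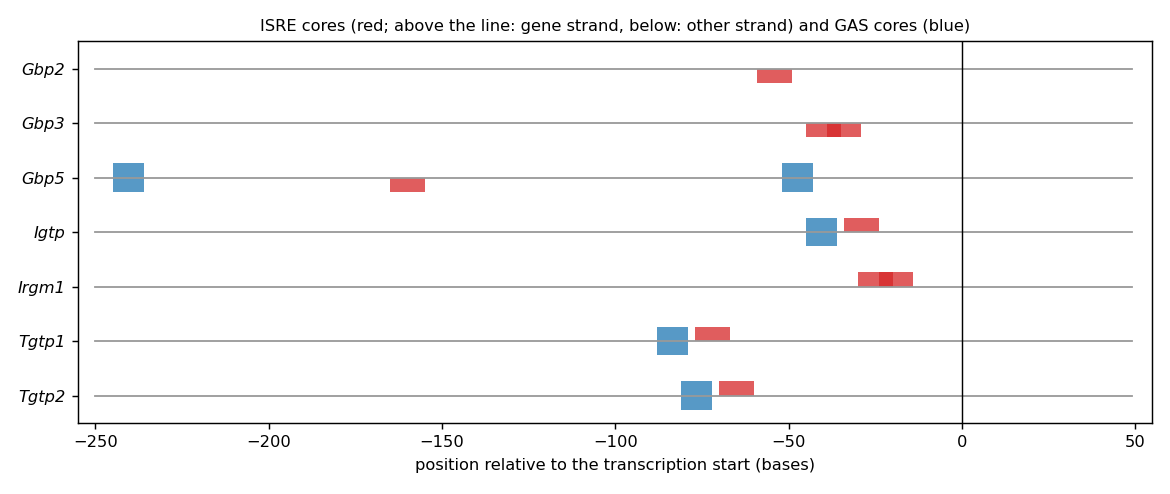
Positions of the ISRE and GAS cores in promoter windows of the GTPase genes. The horizontal axis is the distance from the annotated transcription start in bases, each grey line is 1 window, red blocks are ISRE cores (above the line on the gene's strand, below it on the other) and blue blocks are GAS cores. Igtp, Tgtp1 and Tgtp2 show both cores side by side.

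Levels are given as log2 of the processed signal relative to the 75th percentile of the same array, so that 0 is the brightness of that percentile. The technical standard error (SE), from the scanner's own error of each spot, was about 0.14 for a level and about 0.20 for a difference. It leaves out the spread between animals, and the number of arrays limits the precision. Where a gene had several probes, the brightest stood for it, and that probe was well above background on all 5 arrays for each of the 8 genes. Levels of different probes cannot be ranked against each other, so each gene is compared with itself.

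The 3 GBPs were already bright after PBS and were brightest after the injections that held AEPS. Gbp2 was at 4.02 after PBS, 5.79 after AEPS, 4.56 after OVA, 5.74 after OVA+AEPS and 4.71 after OVA+Alum. Gbp3 was at 2.63, 4.89, 3.77, 4.68 and 2.92 in the same order. Gbp5, a GBP known for its part in inflammasome assembly, was at 2.93, 5.39, 4.52, 5.46 and 3.61. In all 3 genes both AEPS arrays lay above the other 3. OVA alone lay well above PBS for Gbp3 and Gbp5, while OVA+Alum stayed near PBS for Gbp3.

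The regulators Irgm1 and Igtp were also brightest on both AEPS arrays and dimmest after PBS. Irgm1 was at 2.95 after PBS, 6.50 after AEPS, 4.31 after OVA, 6.46 after OVA+AEPS and 3.99 after OVA+Alum. A second Irgm1 probe read 0.72, 4.08, 1.94, 4.09 and 1.62 in that order, the same ranking but for AEPS and OVA+AEPS, which lay within the technical error of each other on both probes. Igtp, also known as Irgm3, was at 4.79, 7.48, 5.68, 7.23 and 5.81. Its probe was printed 10 times on the array, and the SD over the usable spots of an array was 0.016 to 0.053.

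The effectors were brightest on both AEPS arrays too. Tgtp2 was at 2.81 after PBS, 6.89 after AEPS, 4.56 after OVA, 6.78 after OVA+AEPS and 3.83 after OVA+Alum. The dimmer Tgtp1 was at -3.85, -1.26, -3.39, -0.06 and -3.29. Tgtp1 and Tgtp2 are near-identical neighbours, so which copy each probe reads is uncertain. Tgtp1 was the gene in which OVA+AEPS stood clearly above AEPS.

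Iigp1, an effector well studied on Toxoplasma vacuoles, was at -0.45 after PBS, 1.20 after AEPS, -0.10 after OVA, 0.98 after OVA+AEPS and -0.19 after OVA+Alum. A second Iigp1 probe was not well above background after PBS and read -0.24, -3.31, -0.32 and -4.35 on the other 4 arrays in the same order. Both probes put the AEPS arrays on top. They differed in size, with the second probe at least 27.9-fold brighter after AEPS than after PBS against 3.16-fold by the brighter probe.

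**Figure D2:**
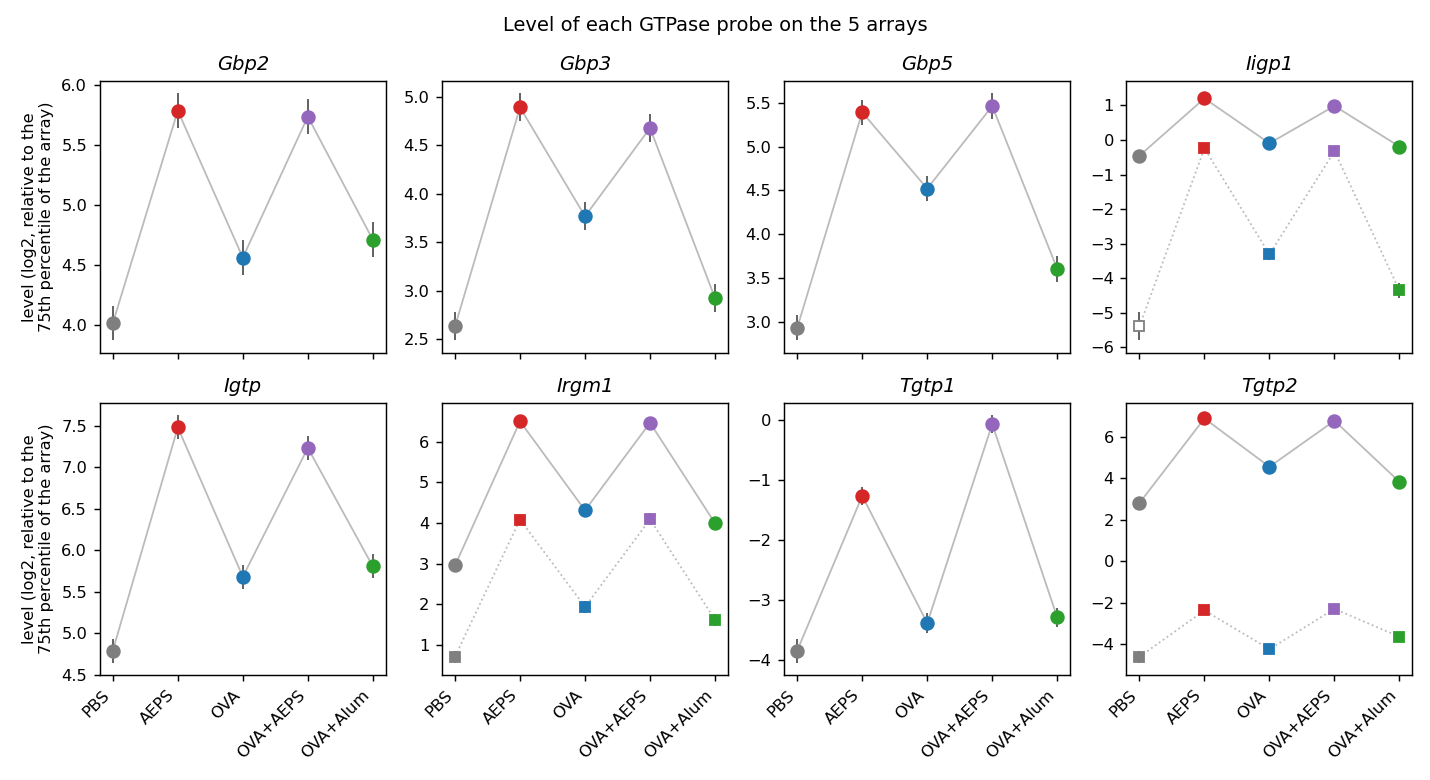
Level of each GTPase gene on each array. The vertical axis is log2 signal relative to the array's 75th percentile, the horizontal axis is the injection, each panel is 1 gene, bars are 1 technical SE and lines only join the points of a probe. Circles are the probe that stands for the gene, squares a further probe and the open square a value not well above background, and AEPS and OVA+AEPS are the upper points of every probe.

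AEPS alone against PBS asks what the polysaccharide does without antigen. All 8 GTPase genes were at least 2-fold higher after AEPS, while 8.7% of the 14936 genes compared were at least 2-fold higher and 6.89% at least 2-fold lower. Tgtp2 was 17.0-fold higher (4.08 ± 0.20, log2 difference ± technical SE) and Irgm1 11.6-fold higher (3.54 ± 0.20). Igtp was 6.44-fold, Gbp5 5.48-fold, Gbp3 4.79-fold, Gbp2 3.42-fold and Iigp1 3.16-fold higher, and Tgtp1 (2.59 ± 0.25) lay between Igtp and Gbp5. The median log2 difference was 2.52 over the 8 genes and -0.17 over all genes compared. From the highest difference down, the genes ranked between 69 (Tgtp2) and 569 (Iigp1) of 14936.

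Further probes gave the same direction with sizes of their own. The second Irgm1 probe differed by 3.37 ± 0.20 between AEPS and PBS, close to the first. A dim second Tgtp2 probe differed by 2.24 ± 0.32, below the 4.08 of the bright one. For OVA+Alum against OVA this pair of Tgtp2 probes had opposite signs, 0.60 ± 0.28 on the dim probe and -0.73 ± 0.20 on the bright one.

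OVA alone against PBS asks how the array of the antigen preparation without adjuvant differed from the control array. Of the 8 genes, 4 were at least 2-fold higher after OVA, Gbp3, Gbp5, Irgm1 and Tgtp2, against 6.67% of all genes compared. Their log2 differences were 1.14, 1.59, 1.36 and 1.75. The other 4 lay above PBS by less, 0.89 for Igtp, 0.55 for Gbp2, 0.46 for Tgtp1 and 0.36 for Iigp1. The second Iigp1 probe was at least 3.34-fold brighter after OVA than after PBS. The dim second Tgtp2 probe stood at 0.37 ± 0.35, short of 2-fold and within its technical interval. The second Irgm1 probe stood at 1.22 ± 0.20. With the median over probes Iigp1 stood at 1.22 and Tgtp2 at 1.06, and 5 of 8 genes passed 2-fold. The medians were 1.01 over the GTPase genes and -0.14 over all genes.

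Both arrays with antigen and adjuvant were also set against PBS, and these comparisons share the PBS array. After OVA+AEPS all 8 genes were at least 2-fold higher than after PBS, against 8.3% of all genes, from 1.44 for Iigp1 to 3.97 for Tgtp2. After OVA+Alum 3 of 8 were at least 2-fold higher, against 6.46% of all genes: Irgm1 at 1.04, Tgtp2 at 1.02 and Igtp at 1.01, each close to the 2-fold line. The remaining 5 lay between 0.27 (Iigp1) and 0.70 (Gbp2). With the median of each gene's probes in place of the brightest, 1 of 8 passed 2-fold for OVA+Alum.

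**Figure D3:**
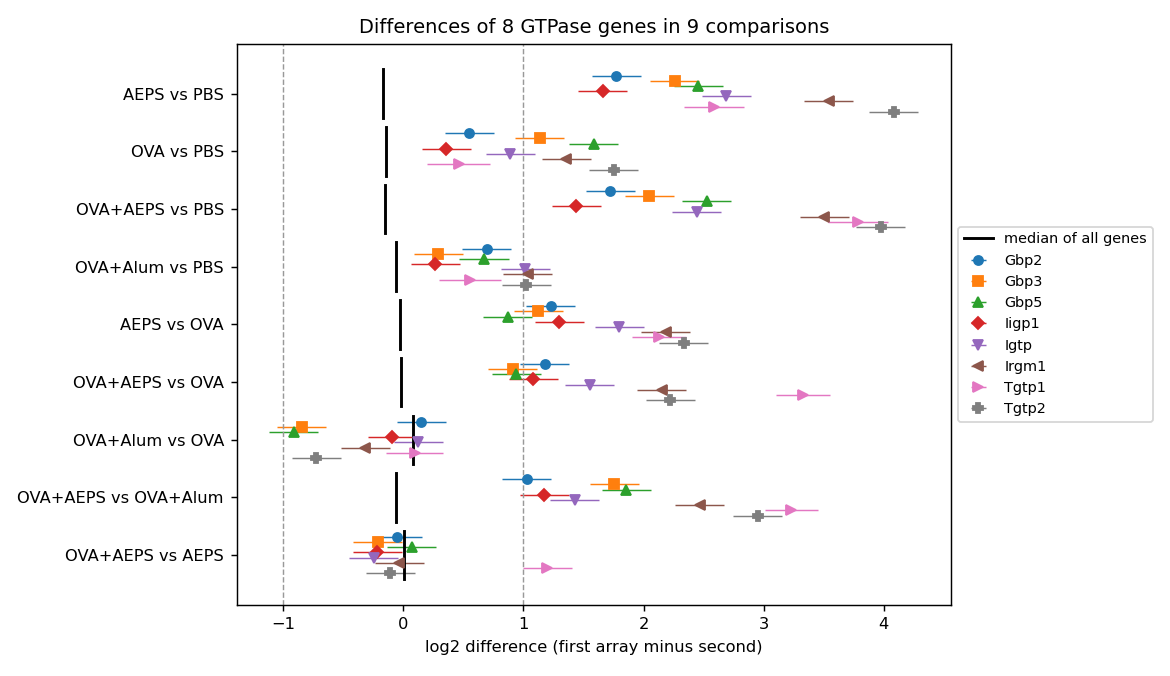
Log2 differences of the GTPase genes in the comparisons between injections. Each point is 1 gene on 1 array minus another, bars are 1 technical SE, dashed lines mark 2-fold and black bars are the medians of all genes compared. The points lie to the right of the black bar wherever an AEPS array is compared with an array without AEPS. For OVA+Alum against OVA they lie between the 2-fold lines, from -0.91 to 0.15.

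Adding AEPS to the antigen was read from OVA+AEPS against OVA. In that comparison 6 of 8 genes were at least 2-fold higher, against 4.08% of all genes. Tgtp1 stood at 3.33 ± 0.22, Tgtp2 at 2.22 ± 0.20 and Irgm1 at 2.15 ± 0.20. Igtp followed at 1.55, Gbp2 at 1.18 and Iigp1 at 1.08. Gbp5 at 0.94 and Gbp3 at 0.91, both high after OVA alone, were just short of 2-fold. AEPS alone compared with OVA alone gave 7 of 8 genes at least 2-fold higher, against 4.25% of all genes, from 0.87 for Gbp5 to 2.33 for Tgtp2.

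Adding Alum to the antigen put 0 of the 8 genes past 2-fold in either direction by their brightest probes. The second Iigp1 probe was the exception among further probes, at -1.04 ± 0.27 against -0.09 on the brighter one. Against OVA alone, 4.15% of all genes were at least 2-fold higher after OVA+Alum and 5.44% at least 2-fold lower. Of the 8 genes 3 lay above 0, Gbp2 at 0.15, Igtp at 0.12 and Tgtp1 at 0.10. The lowest were Gbp5 at -0.91 ± 0.20, Gbp3 at -0.84 ± 0.20 and Tgtp2 at -0.73 ± 0.20, beyond their technical intervals but short of 2-fold. The median was -0.21 over the GTPase genes and 0.08 over all genes.

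The 2 adjuvants were compared directly, at the same antigen dose but at 50 µg of AEPS and 200 µg of Alum. All 8 genes were at least 2-fold higher after OVA+AEPS than after OVA+Alum, against 6.76% of all genes. The differences ran from 1.03 for Gbp2, at the 2-fold line, through 1.17 for Iigp1, 1.43 for Igtp, 1.75 for Gbp3, 1.85 for Gbp5, 2.47 for Irgm1 and 2.95 for Tgtp2 to 3.23 for Tgtp1. By the brightest probes the largest differences were those of the Tgtp effectors and the regulator Irgm1. The second Iigp1 probe differed by 4.03 ± 0.26 and the second Tgtp2 probe by 1.35 ± 0.23, so this order held for the brightest probes only.

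Antigen added to AEPS was read from OVA+AEPS against AEPS. There 1 of 8 genes, Tgtp1, was at least 2-fold higher, at 1.20 ± 0.21, against 2.06% of all genes at least 2-fold higher and 1.88% at least 2-fold lower. The other 7 lay between -0.25 (Igtp) and 0.07 (Gbp5), each with 0 inside the technical 95% interval (1.96 technical SE). The Tgtp1 call rests on 1 dim probe, while the bright and dim probes of near-identical Tgtp2 stood at -0.11 ± 0.20 and 0.07 ± 0.22. With spike-in scaling Tgtp1 was at 0.98, short of 2-fold, and Gbp5 was below 0.

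**Figure D4:**
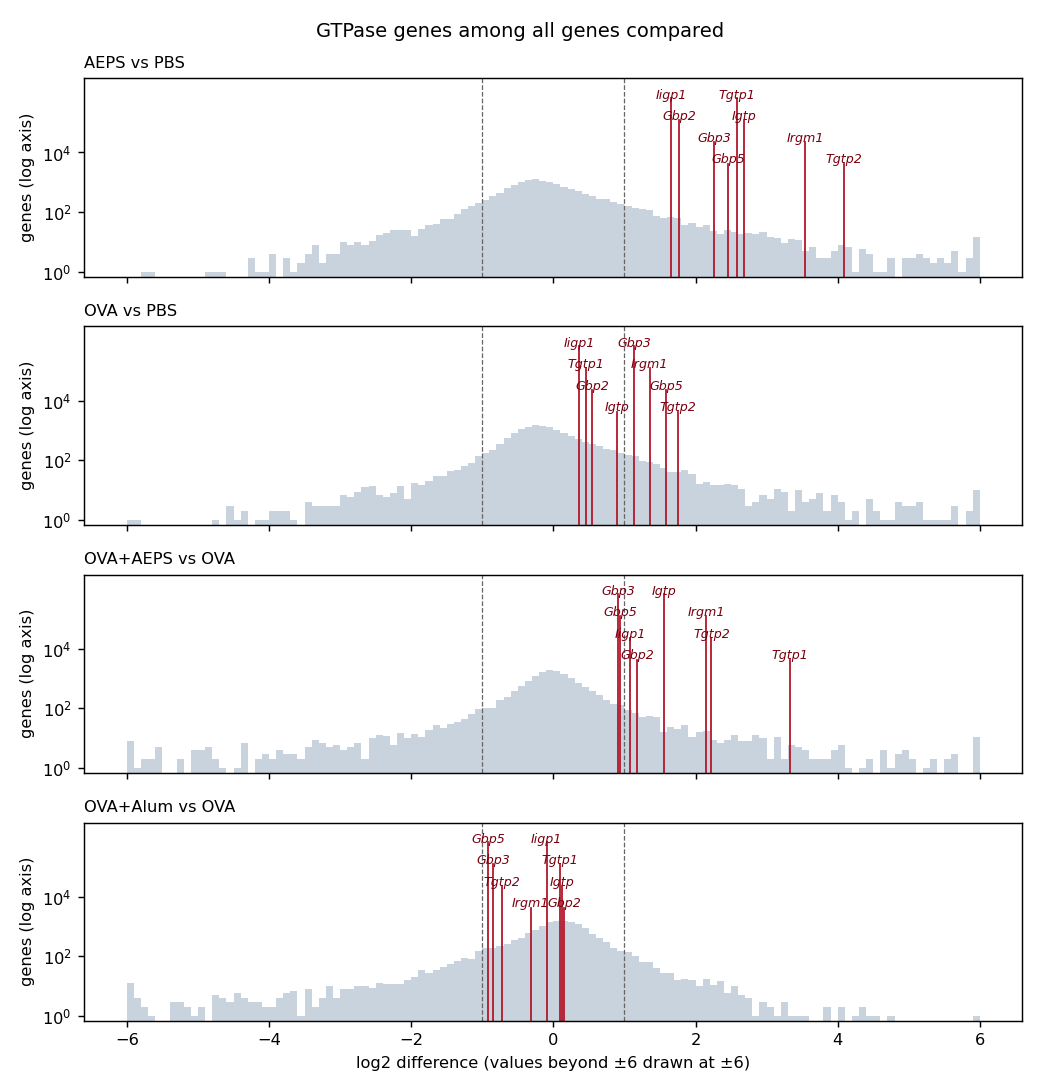
GTPase genes among all genes compared. The horizontal axis is the log2 difference, the vertical axis the number of genes per bin on a log axis, red lines mark the GTPase genes, dashed lines mark 2-fold and values beyond 6 in size are drawn at 6. The red lines sit in the right tail for AEPS against PBS and between the 2-fold lines for OVA+Alum against OVA, where Gbp5, Gbp3 and Tgtp2 lie toward the left.

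Across the 5 arrays the order was nearly the same in each gene. PBS was lowest in 8 of 8 genes. AEPS was highest in 6 and OVA+AEPS in 2, Gbp5 and Tgtp1, and the gap between these arrays was within the technical interval in 7 of 8 genes. The gap from the lower of them to the next array, 0.87 to 2.22, was beyond the technical interval in all 8 genes. Of the remaining pair, OVA was above OVA+Alum in 5 genes and below it in 3, Gbp2, Igtp and Tgtp1, and the pair differed beyond the technical interval in 3 genes, Gbp3, Gbp5 and Tgtp2. The lower of the pair and PBS differed beyond it in 5 genes, all but Gbp3, Iigp1 and Tgtp1.

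By the brightest probes the median AEPS difference of the GTPase genes was 2.52 without antigen and 1.36 with it. The share of all genes with a smaller difference in the presence of antigen was not counted. The difference between OVA+AEPS and OVA minus that between AEPS and PBS was -1.86 for Tgtp2, -1.51 for Gbp5, -1.39 for Irgm1, -1.35 for Gbp3 and -1.14 for Igtp, with a technical SE of 0.29 each. It was -0.60 for Gbp2, -0.58 for Iigp1 and 0.74 ± 0.33 for Tgtp1. The median was -1.24 over the GTPase genes and 0.14 over all genes. With 1 array a group this difference of differences was not tested. Its size depended on the probe for Tgtp2. The dim second Tgtp2 probe gave AEPS differences of 1.95 ± 0.27 with antigen and 2.24 ± 0.32 without it, close to each other. The second Irgm1 probe gave 2.15 and 3.37 in that order. The second Iigp1 probe gave 2.98 and 5.15, the latter with PBS not well above background.

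Of 15570 genes, 169 were at least 2-fold higher on both AEPS arrays than on each of the other 3, and 6 of the 8 GTPase genes were among them: Gbp2, Iigp1, Igtp, Irgm1, Tgtp1 and Tgtp2. All arrays lay on 1 slide, with PBS and OVA+Alum in the same column of it and PBS alone in the first row. Each injection had its own position on the slide, so position and injection cannot be told apart for any of them. At least 2-fold lower on PBS and OVA+Alum than on each other array were 163 genes (1.05%). Of the 8 GTPase genes 0 were among them, which is near that share. By log2 difference Gbp5 at 0.91, Gbp3 at 0.84 and Tgtp2 at 0.73 had this pattern short of 2-fold. Irgm1 was at 0.32 and Iigp1 at 0.09, and Gbp2, Igtp and Tgtp1 were below 0.

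The wider families, 23 further genes of the GBP, IRG and giant GTPase kinds, were read in the same way. For AEPS against PBS, in this list and those that follow, the shares over all genes were 8.7% higher and 6.89% lower. Of 18 above background on AEPS or PBS, 16 were at least 2-fold higher after AEPS by their signals and 0 lower, with a median of 2.48, and 15 were higher when genes not well above background after PBS were held to their bounds. Among GBPs, Gbp7 stood at 2.75, Gbp2b at 2.61, Gbp4 at 2.52, Gbp9 at 2.07 and Gbp6 at 1.34, and Gbp10 at 0.14 was near 0. Gbp8 was not well above background after PBS and was at least 3.25-fold brighter after AEPS. Of the IRGs, the regulator Irgm2 stood at 2.68 and Ifi47, also an IRG, at 2.94.

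Of the less studied IRG loci, Gm4951 stood at 4.15, Gm12250 at 2.92, Gm5431 at 2.62, 9930111J21Rik2 at 1.49, 9930111J21Rik1 at 1.07 and F830016B08Rik at 0.94, short of 2-fold. Gm4841 was not well above background after PBS and was at least 4.76-fold brighter after AEPS, and Gm12185 was at least 1.69-fold brighter by the same measure. Gvin1, which encodes a giant GTPase, stood at 2.60.

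The same list was at least 2-fold higher than PBS in 7 of 17 genes after OVA (5 with bounds), against 6.67% of all genes. After OVA+AEPS it was 14 of 17, against 8.3%. After OVA+Alum it was 1 of 16, near the 6.46% of all genes. For OVA+Alum against OVA 0 of 17 were at least 2-fold higher, near the 4.15% of all genes. The 3 lower, against 5.44%, were Gvin1 at -1.63, Gbp7 at -1.24 and Irgc1, which was not well above background after OVA+Alum. Other large GTPases, the dynamins, mitofusins, atlastins and EHD proteins, gave 0 of 13 past 2-fold in AEPS against PBS, and their median lay 0.11 above that of all genes. The furthest of them were Dnm1l, which divides mitochondria, at 0.71, Ehd1 at 0.50, Dnm2 at -0.49 and Dnm1 at -0.47. Scaling by spike-in probes moved the median of all genes in this comparison from -0.17 to 0.44, which put Dnm1 and Dnm2 above 0 and 3 of the 13 past 2-fold.

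Among the genes of interferon signalling, 11 of 20 were at least 2-fold higher after AEPS than after PBS and 0 lower, with a median of 1.22. Usp18, which removes ISG15 from proteins and damps the type I receptor, stood at 4.79 ± 0.20. Ifng, which encodes interferon gamma, stood at 2.40 ± 0.20, the inhibitor Socs1 at 2.20 ± 0.20 and the transcription factor Batf2 at 2.20 ± 0.20. Ifng was at -0.21 after PBS, 2.19 after AEPS, 0.88 after OVA, 1.53 after OVA+AEPS and 1.84 after OVA+Alum. For Ifng, unlike the GTPase genes, OVA+Alum was not below OVA+AEPS, and the gap between them was within the technical interval.

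Classic targets of type I interferon were at least 2-fold higher after AEPS in 10 of 10 genes, with a median of 4.12. Ifit2 stood at 6.36 ± 0.23, Ifit1 at 5.98 ± 0.20, Ifit3 at 5.81 ± 0.20 and the antiviral enzyme viperin, Rsad2, at 4.38 ± 0.20. Readouts more typical of interferon gamma gave 4 of 9, with a median of 0.32. Those 4 were the chemokine Cxcl9 at 2.16 ± 0.21, the nitric oxide synthase Nos2 at 2.12 ± 0.20, the checkpoint ligand Cd274 at 1.96 ± 0.20 and Ido1, which was not well above background after PBS and was at least 4.14-fold brighter.

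Partners of the GTPases in autophagy and pyroptosis gave 4 of 18 at least 2-fold higher after AEPS, with a median of 0.21. Casp4, the caspase that senses lipopolysaccharide, stood at 2.98 ± 0.20, the autophagy receptor Tax1bp1 at 2.18 ± 0.20, the antibody receptor Trim21 at 2.00 ± 0.20 and Casp1 at 1.23 ± 0.20. Housekeeping genes gave 0 of 10 at least 2-fold higher and 1, not named here, at least 2-fold lower. Hprt stood at 0.58, Tbp at -0.36 and Pgk1 at -0.21, the last pair above 0 with spike-in scaling. With that scaling 1 of 10 was at least 2-fold higher.

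**Figure D5:**
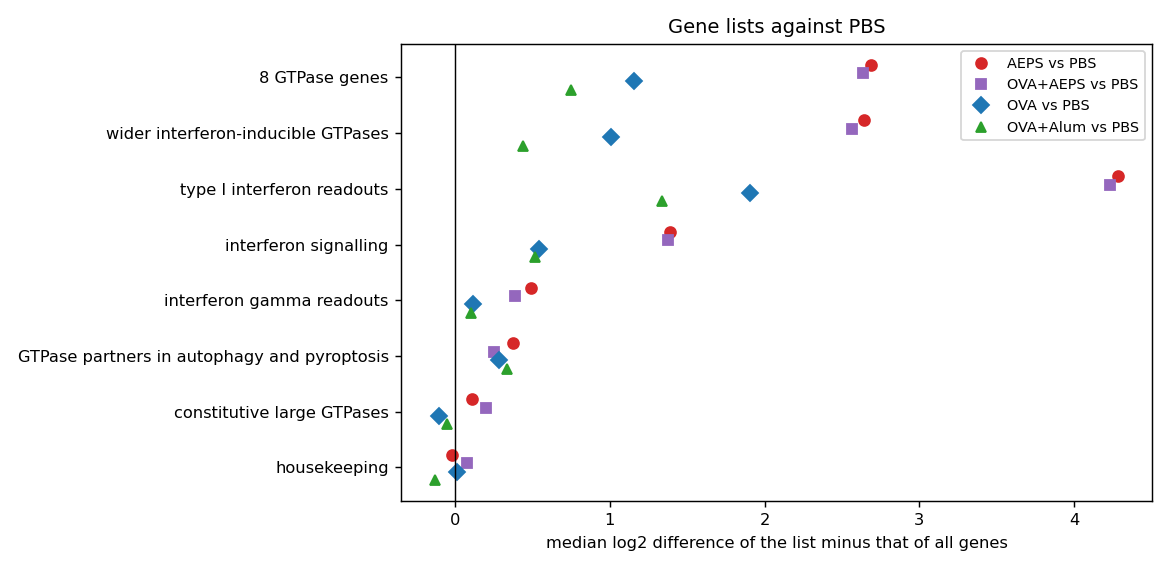
Gene groups against PBS. The horizontal axis is the median log2 difference of a group minus that of all genes compared, and each mark is 1 injection against the shared PBS array. Both AEPS marks lie furthest right for the type I interferon targets (4.29 and 4.23) and for the GTPase groups, and constitutive large GTPases lie near 0.

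Outside these lists, the genes whose profile over the 5 arrays lay nearest the median GTPase profile were Tnfsf10, Trim12c, Trim34a, Zbp1 and Zup1. Their root mean square difference from it was 0.05, 0.10, 0.10, 0.10 and 0.12 (log2), against a median of 1.09 over 13501 genes and 0.19 to 0.62 for the 8 GTPase genes themselves. Tnfsf10, the death ligand TRAIL, was above PBS by 2.39 after AEPS, 0.96 after OVA, 2.46 after OVA+AEPS and 0.51 after OVA+Alum. Zbp1, a sensor of Z-form nucleic acids, was above PBS by 2.56, 0.82, 2.59 and 0.53 in that order.

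Levels of cell type markers also differed between arrays, and in these bulk samples fewer cells of a type and less RNA per cell cannot be told apart. Markers of large peritoneal macrophages (10 of 10) and B cells (9 of 9) were above background on every array of these lavage cells. Neutrophil markers (9 of 9 above background) summed to 1.57 to 1.89 times the PBS level on the other 4 arrays, and their median log2 difference from PBS was 1.98 after AEPS, 1.89 after OVA, 1.53 after OVA+AEPS and 2.23 after OVA+Alum. Large macrophage markers summed to 0.80 times PBS after AEPS, 0.82 after OVA, 0.89 after OVA+AEPS and 0.48 after OVA+Alum. Inflammatory monocyte markers summed to 0.85 to 1.17 times PBS and T and NK cell markers to 1.06 to 1.41 times. Sums weigh the brightest genes, and the medians did not always follow them. After AEPS, OVA, OVA+AEPS and OVA+Alum the monocyte medians were 0.25, 0.70, 0.01 and 0.20 above PBS in log2. Those of T and NK cell markers were -0.01, 0.07, -0.50 and 0.14 in that order. Mast cell markers (8 of 8 above background) summed to 1.51 to 1.86 times PBS and B cell markers to 0.62 to 0.77 times. The mast cell medians were 0.85, 0.79, 0.82 and 0.07 in the same order, and the B cell medians -0.42, -0.47, -0.47 and -0.24. Dim mesothelial markers summed to 1.76 times PBS after AEPS, 1.11 after OVA, 1.59 after OVA+AEPS and 2.94 after OVA+Alum. Erythroid markers summed to 1.44, 0.39, 0.63 and 0.83 times PBS in that order. Markers of small macrophages and dendritic cells summed to 0.84 to 0.99 times PBS with Xcr1 not above background, and those of eosinophils to 1.01 to 1.49 times with Epx not above background. The part of these shifts in the GTPase differences was not tested.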

How the data were processed

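One-colour Agilent arrays (design Agilent-028005) measured peritoneal lavage cells, with 1 array per group. Per the file headers, the scanner files give intensity on a linear scale, which the authors made with Feature Extraction 10.7.1.1 by subtracting background and detrending within each array, with no step between arrays. Flags for outliers and for signal well above background are other values of 0 or 1, per the file headers. The deposited table holds log2 values, each column with a median of 4.66, whose scale and direction were worked out from their correlation of 0.9998 or above with the log2 processed signal. Every column holds the same set of values in another order, as quantile normalization gives. The centring stays unknown.

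Control spots (3671 of 62976 per array) and 134 to 219 outlier spots were left out. Probes took a symbol through RefSeq transcripts of GRCm38.p6: of 55681, 26582 had 1 and 29099 none. Log2 signals minus each array's 75th percentile were compared with Python 3.11.15 and pandas 2.3.3. A gene was compared where its probe was well above background on at least 1 of the 2 arrays, and differences of at least 2-fold were counted. A bound ("at least N-fold") sets the dim probe at the higher of its own signal and the lowest signal well above background. The counting was tested on simulated data. Alternatives were normexp with quantile normalization (limma 3.58.1), other scalings, the deposited table, no filter and other probe summaries.

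All members are named. Of each further list, up to 4 genes with the largest differences in AEPS against PBS are named, and all detected genes of the wider GTPases. Members and lists were chosen with earlier results of these data known. Protein sequences were not used here, and some genes of the lists are not reported here.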

Additional observations from a re-analysis of the deposited data

How the results depend on the processing

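The medians of the GTPase genes, their counts past 2-fold and their single differences were recomputed under 6 alternatives, and the further lists under the scalings and the deposited table. Under array-median scaling, the deposited table, normexp with quantile normalization and no filter on dim probes, the medians held within the technical 95% interval. None of them reversed. The count past 2-fold for OVA+AEPS vs OVA was 5 in place of 6 with normexp and array-median scaling. For OVA vs PBS it was 5 in place of 4 with array-median scaling, the deposited table and spike-in scaling. It was 2 in place of 3 for OVA+Alum vs PBS with normexp. It was 7 in place of 8 for OVA+AEPS vs OVA+Alum with array-median scaling. Spike-in scaling gave 8 for AEPS vs OVA and for OVA+AEPS vs OVA. With the median over probes in place of the brightest, the median difference was 1.95 in place of 1.55 for AEPS vs OVA and 1.79 in place of 1.36 for OVA+AEPS vs OVA, and 1 gene in place of 3 was higher in OVA+Alum vs PBS. With spike-in scaling the median for AEPS vs PBS was 3.12 and 0 genes in place of 1 were higher in OVA+AEPS vs AEPS, where Gbp5 changed sign. In that comparison Irgm1, near 0, changed sign with normexp and with the deposited table. Normexp moved Tgtp1, the dimmest gene, from 2.59 to 1.36 in AEPS vs PBS. It also moved Tgtp1 from 2.13 to 1.21 in AEPS vs OVA and from 3.78 to 2.36 in OVA+AEPS vs PBS. For OVA+AEPS vs OVA Tgtp1 went from 3.33 to 2.22. For OVA+AEPS vs OVA+Alum it went from 3.23 to 2.14, below Tgtp2 at 2.91 and Irgm1 at 2.55. The deposited table put 1 gene, Gbp5, at least 2-fold lower in OVA+Alum vs OVA.

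Of all genes called in AEPS vs PBS, 55.8% were higher, against 69.0% with normexp and 90.4% with spike-in scaling. GTPase partners past 2-fold in AEPS vs PBS were 7 of 18 with spike-in scaling in place of 4. The causes were not tested. No paired analysis was possible because each group has 1 array, and for the same reason no array was left out. A slide block was not run because all arrays lie on 1 slide.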
